A study of Homo sapiens with 4 samples.

Results

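The distal summit clusters of LNCaP cells are 30 stretches of the genome in which strong open-chromatin summits lie close together, away from the ends of genes. LNCaP is an androgen-sensitive prostate cancer cell line, and its open chromatin was mapped with ATAC-seq, an assay based on a transposase that inserts adapters into accessible DNA. The LNCaP group (2 libraries, genotype given as WT) was compared with the LNCaP-resistance group (2 libraries of resistance cells treated with enzalutamide, an antiandrogen). The labels give RPMI-1640 with fetal bovine serum as the medium of both groups, and they give neither the subline nor the dose of the resistant libraries. In the study, resistant sublines were derived after adaptation to charcoal-stripped serum, which is poor in androgen, by stepwise exposure to the drug, so the drug, androgen deprivation and the acquired state cannot be told apart here.

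The clusters were chosen by the LNCaP lists alone. In each list the 20000 highest-scoring summits lying more than 3 kb from either end of any RefSeq gene were taken, neighbouring summits were stitched across the distance customary for super-enhancers (the widest gap between neighbouring sites was 12315 bp), and stretches with 4 or more summits were retained when they overlapped such a stretch of the other LNCaP library. There were 54 such stretches in LNCaP replicate 1 and 63 in replicate 2, of which 30 in each list met the rule, and these joined into 30 clusters. They held 133 and 131 summits, or 0.665% and 0.655% of the 20000. Summits within 250 bp of each other were joined into 142 sites, of which 134 had a summit in both LNCaP lists. The lowest score among the 20000 was 20.8 in replicate 1 and 16.4 in replicate 2. Just outside the rule were 24 and 33 stretches, of which 18 and 20 contained 3 of the 20000 summits of the other library. The LNCaP values below describe this choice, and the resistant lists took no part in it.

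Distal open sites in a cell are mostly enhancers, stretches of DNA bound by transcription factors that act on a promoter elsewhere. Where several lie within a few kilobases they are often grouped as a dense or stretch enhancer, a class known for its cell-type specificity, and in luminal prostate cells such sites are typically occupied by FOXA1 and HOXB13. Accessibility alone does not show that a site is an enhancer, and histone marks are not analysed here.

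Each list holds peak summits, each with a score that is a −log10 p or q value. Because reads were not tabulated, depth is unknown. The lists held 117131 and 107236 LNCaP summits and 70735 and 45570 resistant summits on the main chromosomes, so a summit missing from the shorter lists need not mean closed chromatin. To compare lists, a summit's percentile was used, which is the percent of summits of its own list with an equal or lower score, and a site without a summit was given 0. The luminal markers KRT8, KRT18, FOXA1, HOXB13, KLK3, TMPRSS2 and FOLH1 had a summit within 3 kb of a gene end in all 4 lists, as did the neuroendocrine markers SYP, CHGA, ENO2 and INSM1. Of 3 basal markers, KRT5 had none in any list, and of 5 blood markers, PTPRC and CD14 had none in any list. With 2 libraries against 2, the smallest p that an exact permutation test over samples allows is 0.33, so groups are described with their values and not tested.

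Sequences are shown for the transcript starts on which the results turn, from the RefSeq promoter table of GRCh38.p14, 250 bases before to 50 after each start, written 5′ to 3′ on the strand of the gene. The first 3 are annotated starts within 1 kb of a site of a cluster, and every list had a summit there. The last 3 are the outer starts of the genes whose clusters were lost from both resistant lists. Capitals mark GC boxes, searched as GGGCGG and, for the other strand, CCGCCC.
ZDHHC7, chr16:85011486-85011785, minus strand: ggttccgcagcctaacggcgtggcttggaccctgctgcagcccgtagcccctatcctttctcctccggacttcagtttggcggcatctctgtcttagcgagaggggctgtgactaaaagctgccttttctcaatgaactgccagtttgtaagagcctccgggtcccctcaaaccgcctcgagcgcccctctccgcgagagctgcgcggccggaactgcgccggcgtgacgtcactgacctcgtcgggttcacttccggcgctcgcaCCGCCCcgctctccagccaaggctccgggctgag
HK1, chr10:69318814-69319113, plus strand: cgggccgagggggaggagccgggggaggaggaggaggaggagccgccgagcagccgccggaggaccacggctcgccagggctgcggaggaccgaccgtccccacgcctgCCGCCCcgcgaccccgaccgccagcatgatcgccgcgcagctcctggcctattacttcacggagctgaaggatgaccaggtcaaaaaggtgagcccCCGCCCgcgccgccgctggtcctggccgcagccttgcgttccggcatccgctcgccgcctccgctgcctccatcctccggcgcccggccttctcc
SLC36A1, chr5:151447353-151447652, plus strand: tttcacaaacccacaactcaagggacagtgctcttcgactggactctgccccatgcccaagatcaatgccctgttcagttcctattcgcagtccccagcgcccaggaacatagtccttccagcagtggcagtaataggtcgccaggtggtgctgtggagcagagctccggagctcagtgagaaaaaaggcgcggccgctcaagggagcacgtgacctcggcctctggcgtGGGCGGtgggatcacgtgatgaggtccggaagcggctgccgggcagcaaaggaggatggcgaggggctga
RAB3GAP1, chr2:135052042-135052341, plus strand: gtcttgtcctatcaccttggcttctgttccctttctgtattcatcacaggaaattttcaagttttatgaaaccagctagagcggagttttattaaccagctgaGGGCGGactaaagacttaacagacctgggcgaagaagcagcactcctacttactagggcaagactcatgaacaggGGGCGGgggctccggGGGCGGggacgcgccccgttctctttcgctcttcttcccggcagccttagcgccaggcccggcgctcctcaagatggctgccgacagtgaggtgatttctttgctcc
VAV2, chr9:133992275-133992574, minus strand: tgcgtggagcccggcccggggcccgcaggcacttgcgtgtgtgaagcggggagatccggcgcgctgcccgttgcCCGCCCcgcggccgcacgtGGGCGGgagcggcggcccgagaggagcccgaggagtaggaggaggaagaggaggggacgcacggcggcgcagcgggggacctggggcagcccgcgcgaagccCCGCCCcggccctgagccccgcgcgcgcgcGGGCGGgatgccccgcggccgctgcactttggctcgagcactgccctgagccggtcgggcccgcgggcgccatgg
TTC7B, chr14:90816381-90816680, minus strand: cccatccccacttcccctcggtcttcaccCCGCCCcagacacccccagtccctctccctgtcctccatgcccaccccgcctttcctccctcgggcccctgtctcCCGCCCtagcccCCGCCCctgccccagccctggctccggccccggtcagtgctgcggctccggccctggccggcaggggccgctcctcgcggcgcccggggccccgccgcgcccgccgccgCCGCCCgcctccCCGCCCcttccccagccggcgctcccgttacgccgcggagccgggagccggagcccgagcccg
The 6 windows held between 1 and 5 GC boxes, against 45.0% of the 35116 RefSeq windows on the main chromosomes that hold at least 1. Their GC content ran from 54.7% in RAB3GAP1 to 80.7% in TTC7B. None held a CCAAT box (CCAAT or, on the other strand, ATTGG), which 34.6% of all windows hold. The forkhead sequence (TGTTTAC or GTAAACA, in 3.42% of all windows) was not found in these 6. The sequence under the distal summits themselves is not analysed here.

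The clusters were between 13093 and 43237 bp long, with a median of 25605.5 bp, and covered 751541 bp on 16 chromosomes. Chromosomes 14 and 16 held 4 each, and chromosomes 1, 2 and 11 held 3 each. In 18 clusters both LNCaP libraries had 4 summits, and the most in a stretch was 6. The median gap between neighbouring sites was 6770.5 bp. Of the 30 clusters, 27 lay within a protein-coding gene, and that in ANKRD11 also overlapped a second. Of the 142 sites, 126 (88.7%) were inside a protein-coding gene, compared with 58.0% of the other 24355 distal LNCaP sites. The genes holding clusters were long, with a median of 190281 bp against 24115 bp over all 20037 protein-coding genes. A rule that requires a long stretch away from gene ends can be met inside a gene only if the gene is long, so gene length is in part set by the rule.

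The 3 clusters outside protein-coding genes were at the non-coding gene LINC03062 on chromosome 9, 55540 bp from GADD45G, a stress-induced growth arrest gene, at OACYLP on chromosome 18, 43272 bp from SEC11C, a subunit of the signal peptidase, and on chromosome 11, 10974 bp from TPCN2, an endolysosomal cation channel. No gene was at 3 or more clusters.

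A summit was called left when a resistant summit of any score lay within 250 bp. In LNCaP-resistance replicate 1, 70 of the 133 summits of LNCaP replicate 1 were left, or 52.6% (95% exact binomial interval 43.8 to 61.3). In the same resistant list, 69 of the 131 summits of LNCaP replicate 2 were left, or 52.7% (43.8 to 61.5). In LNCaP-resistance replicate 2, the counts were 56 of 133, or 42.1% (33.6 to 51.0), and 58 of 131, or 44.3% (35.6 to 53.2). Averaged per resistant library, the share left was 47.9% ± 6.69 (SD, n = 2). Between the LNCaP libraries, 97.0% and 96.9% of the same summits were matched, which the rule in part fixes, and 97.6% of the other distal summits were. The intervals cover counting error only, and summits of 1 cluster share a locus.

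Of the other distal summits of the same 20000, 58.1% and 59.1% were left in LNCaP-resistance replicate 1 and 44.3% and 44.4% in replicate 2. The difference, cluster summits minus other distal summits, was −5.43 percentage points for LNCaP replicate 1 and −6.45 for LNCaP replicate 2 in the first resistant list, and −2.15 and −0.11 in the second. The 95% intervals of all 4 differences included 0, the widest running from −15.0 to 1.93. The mean difference of −3.53 points became 0.145 without LNCaP replicate 1, when 63 stretches of replicate 2 stood in for the clusters. Of the cluster summits, 58 of 133 (43.6%) and 57 of 131 (43.5%) were left in neither resistant list, beside 40.0% and 39.1% over all 20000 distal summits of each LNCaP list. These shares are near the background, and a difference in loss between clusters and other distal summits was not detectable at this precision.

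Summits with lower LNCaP scores were matched less often. Among the 5000 highest-ranked distal summits, 28 of 33 cluster summits of LNCaP replicate 1 (84.8%) were left in LNCaP-resistance replicate 1, and 24 (72.7%) in replicate 2. Among ranks 15001 to 20000, 9 of 27 (33.3%) and 4 (14.8%) were left. For LNCaP replicate 2, the shares were 74.4% and 59.0% in the first rank band and 31.6% in both resistant lists in the last. The other distal summits of LNCaP replicate 1 went from 71.7% and 59.7% in the first band to 47.6% and 32.4% in the last. The bands of cluster summits hold between 19 and 40 summits each, so single bands are imprecise.

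**Figure D1:**
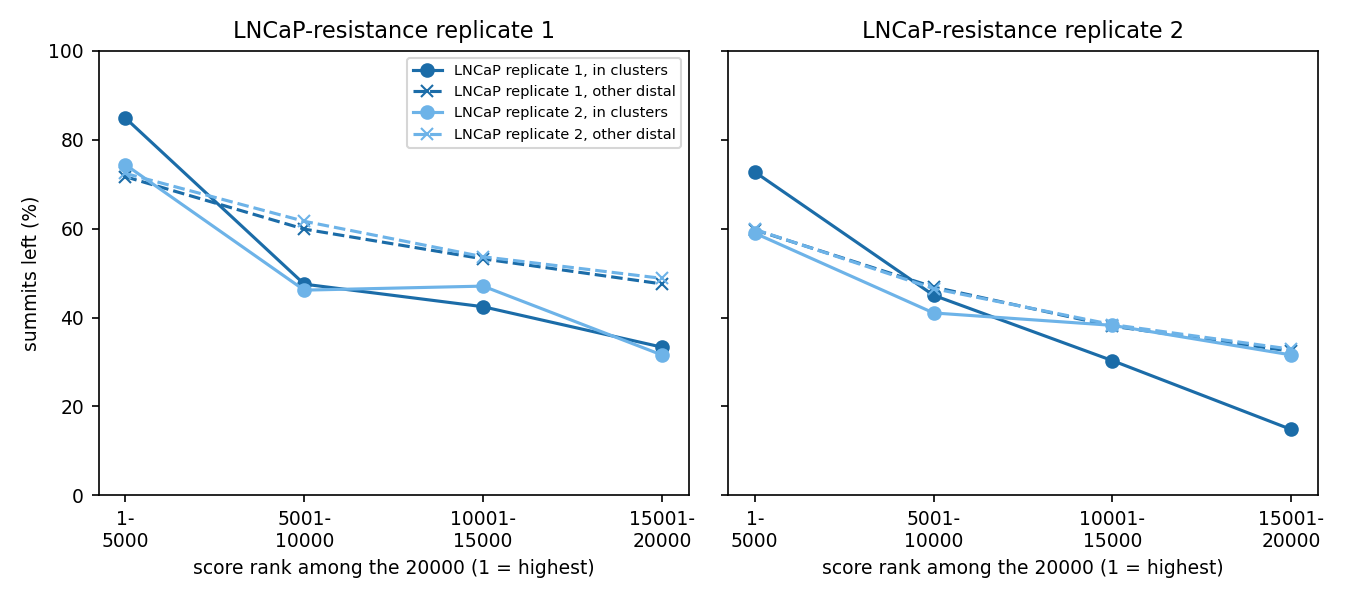
Percent of LNCaP distal summits with a resistant summit within 250 bp (vertical axis) by the rank of the summit's LNCaP score in bands of 5000 (horizontal axis), for LNCaP-resistance replicate 1 (left) and replicate 2 (right). Solid lines are cluster summits and dashed lines other distal summits, in dark blue for LNCaP replicate 1 and light blue for LNCaP replicate 2, and every line is lower in the last band than in the first, as for cluster summits of replicate 1, which go from 84.8% to 33.3% in the left panel.

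The strongest and weakest site of each cluster differed in the same direction. The strongest site, by mean LNCaP percentile, was present in LNCaP-resistance replicate 1 in 22 of 30 clusters and in replicate 2 in 17. The weakest site was present in 12 and 9. The median LNCaP percentile was 94.2 for the strongest sites and 74.6 for the weakest. In 17 clusters the strongest site was in both resistant lists. Of all distal LNCaP sites at percentile 90 or above in both LNCaP lists, 61.7% were. The other distal summits also fell from the first rank band to the last, as given above. In 5 clusters a single site was found in a resistant list. At LRIG3, a transmembrane protein with leucine-rich repeats, the site at chr12:58877330 had percentiles of 93.0 and 98.4 in LNCaP and 90.9 and 75.3 in the resistant lists, while its other 4 sites were found in neither. At ACACA, acetyl-CoA carboxylase 1 of fatty acid synthesis, the site at chr17:37168962 went from 95.6 and 94.1 to 73.3 and 59.2, and 3 further sites were absent from both lists, although 1 of them, at chr17:37188360, ranked at 92.0 and 90.3 in LNCaP.

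Of the 142 sites, 55 were found in both resistant lists, 18 in replicate 1 alone, 5 in replicate 2 alone and 64 in neither. The 64 make up a share close to the 41.8% of all 24497 distal LNCaP sites found in neither. Of the 55 sites, 43 had a lower percentile in both resistant lists than in both LNCaP lists, beside 67.4% of all 9769 distal sites found in both resistant lists, and 3 had a higher percentile in both, beside 4.57%. Counted by rank from the top of the list instead of by percentile, a scale that does not depend on list length, 31 of the 55 were farther from the top in both resistant lists (38.5% of the 9769) and 12 were nearer (23.6%). Both counts of lower sites were a larger share of the 55 than of the 9769, which was not tested. The choice of sites for a high LNCaP score favours a lower value elsewhere, for members and for other distal sites. It need not do so equally, as the median rank among the 20000 was 9256 and 7382 for cluster summits and 10007 and 10013 for others.

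The 3 sites of higher percentile in both resistant lists were in genes on chromosomes 16 and 21. In ZDHHC7, a protein palmitoyltransferase, the site at chr16:84994962 had 94.5 and 80.7 in LNCaP and 96.2 and 94.6 in the resistant lists. In ZC3H18, a nuclear zinc finger protein of RNA processing, the site at chr16:88617508 had 85.0 and 84.7 against 91.4 and 89.0. In HLCS, which attaches biotin to carboxylases, the site at chr21:36910007 had 81.3 and 76.6 against 87.7 and 87.4. All 3 sat in clusters with other sites absent from both resistant lists, and in ZC3H18 it was the only 1 of 4 sites found in either.

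Among the 30 sites at the 90th percentile or above in both LNCaP lists, 20 were found in both resistant lists, 4 in 1 and 6 in neither. Of all 4114 distal LNCaP sites at this level, 61.7% were found in both resistant lists and 24.3% in neither. The 6 were 2 sites in VAV2, 2 in ASAP2, 1 in MYT1L and 1 in ACACA. ASAP2, a GTPase-activating protein for Arf proteins, had percentiles of 91.3 and 92.1 at chr2:9328061 and 90.04 and 92.9 at chr2:9347482. MYT1L, a zinc finger transcription factor of neurons, had 93.5 and 93.8 at chr2:1980817.

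In 3 of the 30 clusters (10%) no LNCaP summit was left in either resistant list. They were inside RAB3GAP1 (chr2:135150922-135164632), the catalytic subunit of a GTPase-activating complex for Rab3, inside VAV2 (chr9:133863377-133892364), a guanine nucleotide exchange factor, and inside TTC7B (chr14:90704886-90740190), an adaptor of the phosphatidylinositol 4-kinase complex at the plasma membrane. Of all 20000 distal summits of each LNCaP list, 40.0% and 39.1% were left in neither resistant list. No such share was computed for stretches of summits. These 3 clusters held no resistant summit of any score at all. Their 13 sites had the high LNCaP scores that the rule asks for. The 4 sites of VAV2 ran from 88.8 to 96.9 in LNCaP replicate 1 and from 86.6 to 94.5 in replicate 2. The 5 sites of TTC7B ran from 81.4 to 90.7 and from 76.9 to 91.6, and the 4 of RAB3GAP1 from 71.2 to 88.0 and from 74.7 to 88.4.

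The nearest resistant summit was 20974 and 20981 bp from the VAV2 cluster in the 2 resistant lists, 25275 and 25243 bp from that of RAB3GAP1, and 7117 and 7101 bp from that of TTC7B. The surroundings were thinner but not empty. Within 250 kb on either side of the VAV2 cluster, outside it, the LNCaP lists had 37 and 38 summits and the resistant lists 21 and 14. Around TTC7B they had 31 and 29 against 16 and 9, and around RAB3GAP1 15 and 13 against 7 and 4. Matching distances of 100 or 500 bp are shorter than these gaps, so they could not fill the 3 clusters. No other cluster was empty at either distance. Without LNCaP-resistance replicate 1, 5 clusters were empty. With all lists shortened to the length of the shortest, 5 clusters were empty, the same 3 with those in MYT1L and RPS6KA2.

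MYT1L and RPS6KA2, the latter a kinase of the ribosomal S6 family, were the closest to these 3. Each had 1 of 4 summits left in LNCaP-resistance replicate 1 and none in replicate 2. The RPS6KA2 site at chr6:166655456, with percentiles of 96.7 and 98.9 in LNCaP, was at 22.2 in LNCaP-resistance replicate 1 and absent from replicate 2. The remaining MYT1L site was at 2.01 in the same list. The MYT1L cluster lay within a gene whose outer start had no summit in any of the 4 lists.

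At the other end, 4 clusters had 75% or more of their summits left for every pair of libraries. LMNA, which encodes lamins A and C of the nuclear envelope, had all 5 summits left in both resistant lists. Its cluster at chr1:156090918-156123877 had 7 and 6 summits in LNCaP and 7 and 6 in the resistant lists, so the counts of the groups were the same. The strongest LMNA site, at chr1:156114717, held 95 and 97.7 in LNCaP and 94.7 and 94.3 in the resistant lists. The sites at chr1:156090918 and chr1:156104304 fell to 71.5 and 41.5, and to 72.4 and 38.3, from LNCaP percentiles of 80.2 or more.

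PTPRJ, a receptor-type tyrosine phosphatase, had 4 of 4 summits left in LNCaP-resistance replicate 1 and 3 of 4 in replicate 2. The middle sites, at chr11:48050106 and chr11:48055884, had percentiles of 96.4 and 98.2, and 97.6 and 99.1, in LNCaP. In the resistant lists they stood at 89.5 and 82.5, and at 86.9 and 79.5. The outer site at chr11:48061526 went from 80.7 and 91.8 to 21.4 and 0. The cluster near TPCN2 (chr11:69101571-69131764) had 4 of 5 summits left in every pair, and the site lost, at chr11:69115025, was the weakest there in LNCaP replicate 1, at 74.4. HK1, hexokinase 1, had 3 of 4 left in every pair, and the site it lost, at chr10:69345588, was its strongest in LNCaP, at 89.5 and 93.7.

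The remaining 23 clusters lay in between. The median share left over all 30 clusters, each as a mean over the 4 library pairs, was 51.0%. In 15 clusters at least 50% of the summits were left in every pair.

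**Figure D2:**
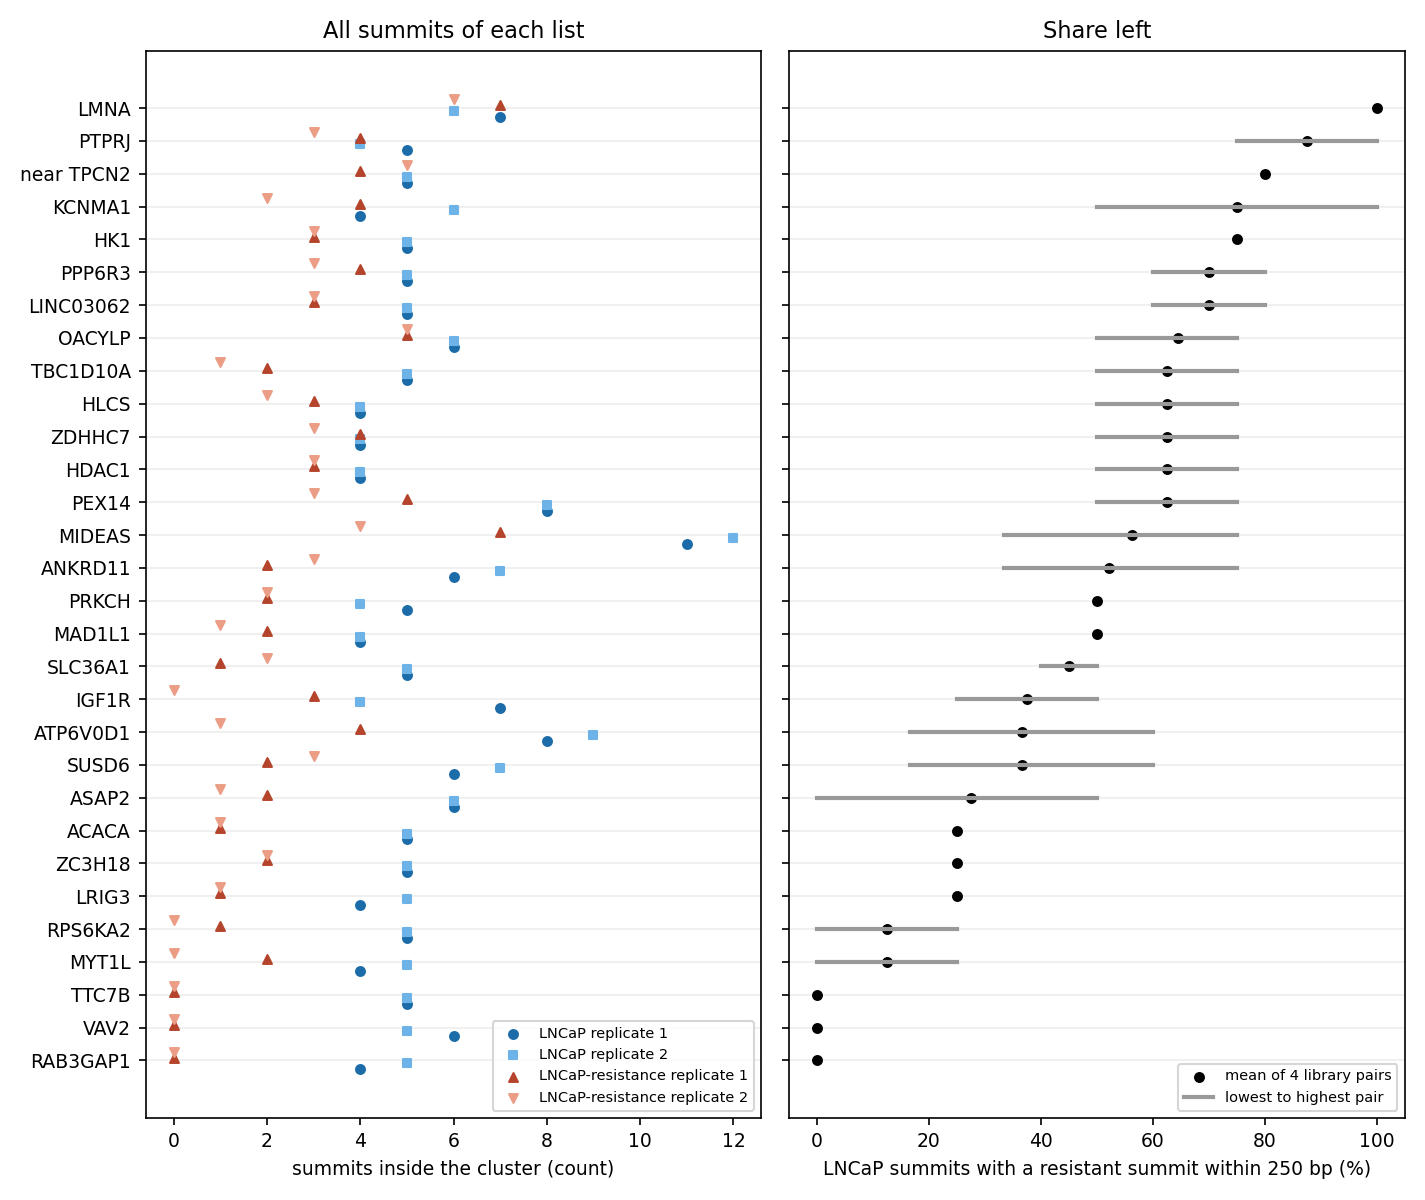
The 30 clusters in order of the share of LNCaP summits left, named by the gene that holds each. Left, number of summits of any score inside the cluster in each list (blue, LNCaP; red, LNCaP-resistance); right, percent of LNCaP summits with a resistant summit within 250 bp, as the mean over 4 library pairs (point) and the range (line). RAB3GAP1, VAV2 and TTC7B are at 0 in both panels for the resistant lists, and LMNA is at 100%.

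**Figure D3:**
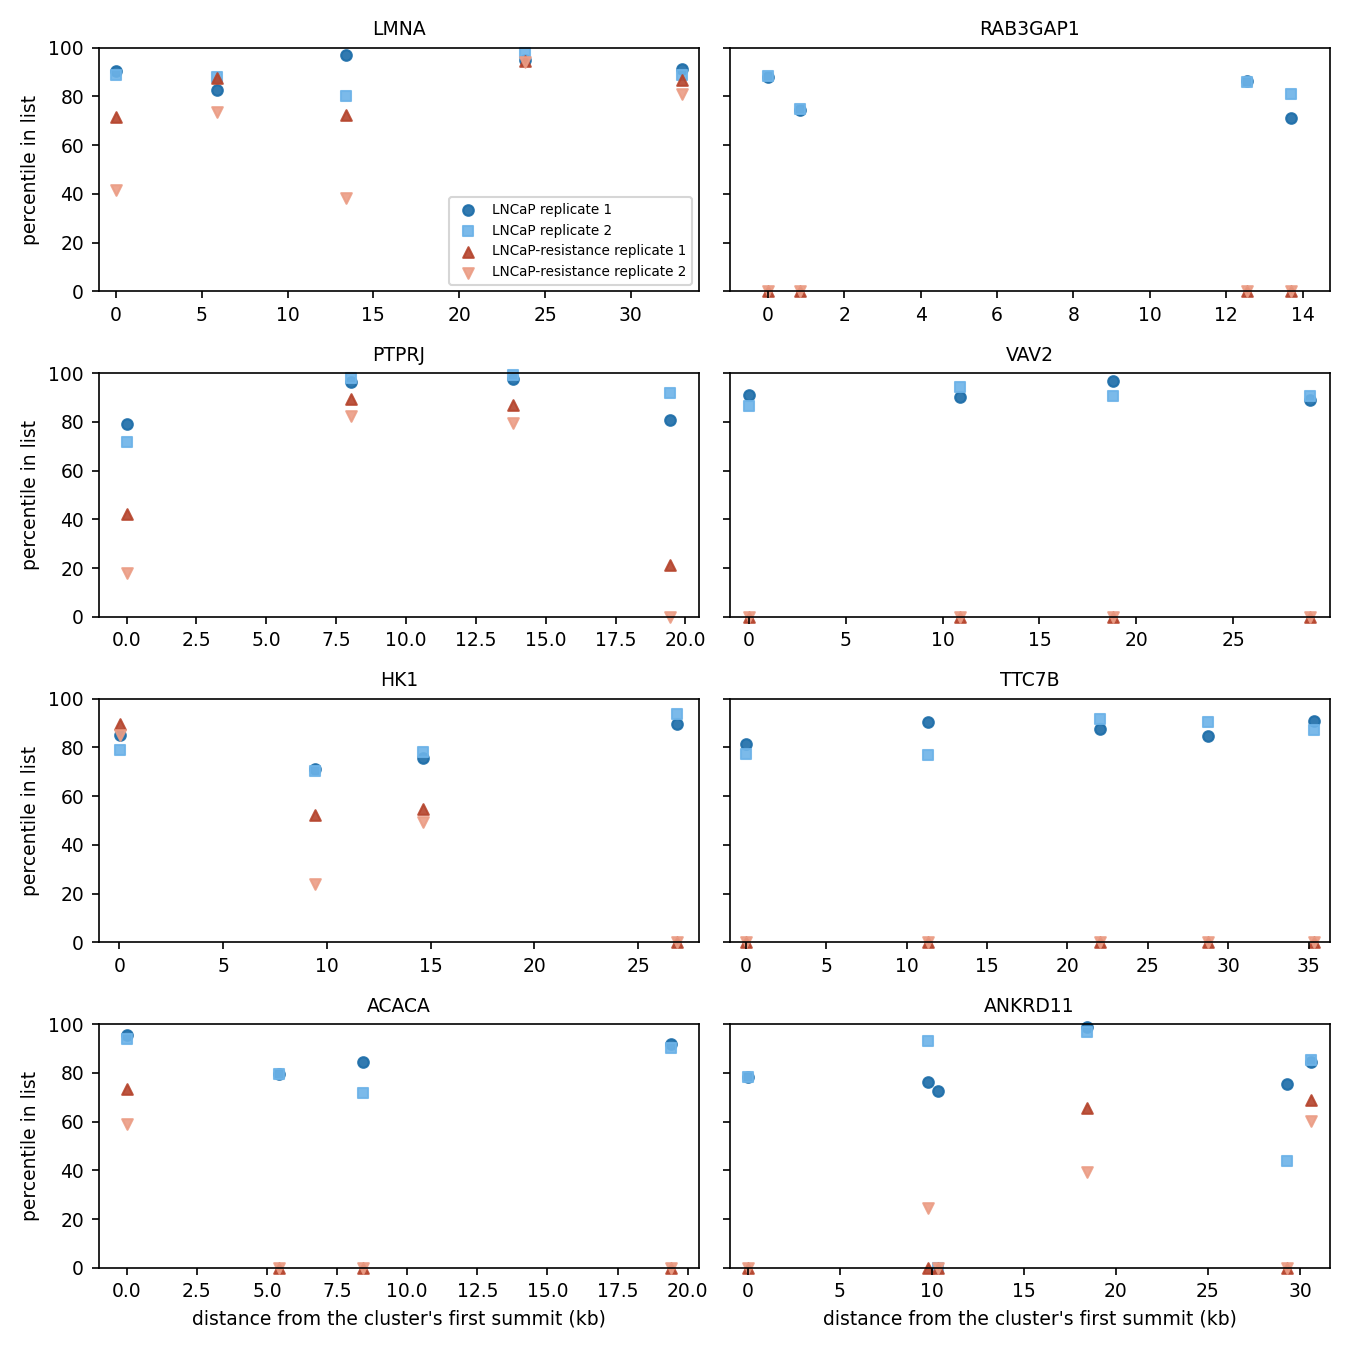
Percentile of each site in each list (vertical axis, 0 where the list has no summit) by distance from the first summit of the cluster in kb (horizontal axis) in 8 clusters, with LNCaP in blue and LNCaP-resistance in red. In VAV2, TTC7B and RAB3GAP1 every red symbol is at 0, in LMNA every site has all 4 symbols above 0, and in ACACA 1 of 4 sites does.

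The genes are described by role in groups made by hand. Among signalling genes, VAV2 had none left, RPS6KA2 had 1 of 4 in LNCaP-resistance replicate 1 alone, IGF1R, the receptor of insulin-like growth factor 1, had a mean share left of 37.5%, PRKCH, a protein kinase C, had 50% and PTPRJ had 87.5%. In PRKCH the 2 sites left were its strongest, and that at chr14:61430498 went from 99.5 and 99.4 to 61.2 and 9.57. Among genes of vesicle traffic, RAB3GAP1 had none left, ASAP2 had 27.5%, and TBC1D10A, a GTPase-activating protein for Rab proteins, had 62.5%. The TBC1D10A site at chr22:30298485 had 99.7 and 99.2 in LNCaP and the lower values of 98.3 and 83.6 in the resistant lists.

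Among genes of chromatin and the nucleus, HDAC1, a histone deacetylase, had 62.5% left, MIDEAS, a partner of HDAC1 in the mitotic deacetylase complex, had 56.3%, ANKRD11, a chromatin regulator with ankyrin repeats, had 52.1%, and ZC3H18 had 25%, while LMNA had 100%. ANKRD11 had 6 sites, and the strongest, at chr16:89383213, went from 98.9 and 97.0 to 65.8 and 39.2. In metabolism, ACACA had 25% left, HLCS and PEX14, a docking protein of peroxisomal import, had 62.5% each, and HK1 had 75%. The LNCaP percentiles of the sites ran from 71.8 to 95.6 in ACACA and from 76.6 to 92.0 in HLCS, whose product attaches the biotin that acetyl-CoA carboxylase requires.

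Among genes of transport across membranes, ATP6V0D1, a subunit of the vacuolar proton pump, had 36.7% left, SLC36A1, a proton-coupled amino acid transporter, had 45.0%, and KCNMA1, the pore subunit of the BK potassium channel, had 75%. KCNMA1 differed between the resistant libraries, with 4 of 4 summits left in replicate 1 and 2 of 4 in replicate 2. The largest set of sites, with 6, occurred in ATP6V0D1, SUSD6, MIDEAS, IGF1R, ANKRD11 and OACYLP. In ATP6V0D1 the site at chr16:67462082 went from 92.0 and 93.7 to 89.0 and 84.0, whereas that at chr16:67452032 went from 98.4 and 97.8 to 29.8 and 0. In SUSD6, a transmembrane protein with a sushi domain, only the site at chr14:69643592 was in both resistant lists, at 92.2 and 73.8. Of the others, MAD1L1, a spindle checkpoint protein, had 50% left, and PPP6R3, a regulatory subunit of the PP6 phosphatase, had 70.0%.

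Counting all summits inside the 30 clusters whatever their score, the LNCaP lists had 163 and 165 and the resistant lists 83 and 63. In 25 clusters both resistant lists had fewer summits than both LNCaP lists, and the same held within 250 kb around 29 of the 30 clusters. The resistant mean was 44.5% of the LNCaP mean, compared with 42.7% for all summits more than 3 kb from a gene end and 51.8% for whole lists. Within 250 kb of the clusters the corresponding value was 50.8%. As a share of each list the clusters held 0.139% and 0.154% of LNCaP summits and 0.117% and 0.138% of resistant summits. The lower number within the clusters was near that of distal summits in general.

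More than 250 bp from any summit of either LNCaP list were 12 of the 83 in LNCaP-resistance replicate 1, in 11 clusters, and 5 of the 63 in replicate 2, in 5 clusters. Of all resistant summits more than 3 kb from a gene end, 31.7% and 24.6% lay that far from any LNCaP summit. The clusters were chosen for dense LNCaP summits, so nothing is read from the smaller shares within them. When the same rule was run on the resistant lists, 70 clusters were found, of which 1 overlapped an LNCaP cluster, that in LMNA. This is 3.33% of the LNCaP clusters and 1.43% of the resistant clusters. The overlap was 2 to 4 clusters when any 1 library was left out. The 20000 took up most of the 24150 distal summits of LNCaP-resistance replicate 2.

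Sites close to an annotated transcript start were all found in the resistant lists. Only 3 of the 142 sites lay within 1 kb of such a start, those of HK1, SLC36A1 and ZDHHC7 whose promoter sequences are given above, and all 3 were in both resistant lists. The HK1 site had 85.2 and 79.1 in LNCaP and 89.6 and 85.0 in the resistant lists. The SLC36A1 site had 79.1 and 81.5 against 82.5 and 79.0, and the ZDHHC7 site 90.8 and 86.9 against 85.8 and 86.8. At HK1 and SLC36A1 the groups overlapped, and at ZDHHC7 both resistant values were lower. Of the 139 sites farther away, 52 (37.4%) were in both resistant lists. Over the other distal LNCaP sites, the shares were 70.4% near a start and 38.9% farther away.

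The starts of the genes themselves were also examined, since the rule does not use them. For 20 of the 27 genes used to name the clusters the RefSeq table holds a promoter window at the outermost start. A summit within 1 kb of that start was present in both LNCaP lists for 17 genes and in both resistant lists for 15, beside 66.0% of the 13819 protein-coding genes with such a window. By percentile, 3 of the 20 starts were lower in both resistant lists and 6 were higher, compared with 15.5% and 21.4% of all such genes. For RAB3GAP1 the start had 81.4 and 81.0 in LNCaP and 78.2 and 70.5 in the resistant lists, so every list had a summit there, while no resistant list had one in the cluster. The VAV2 start, in a window of 80.0% GC with 4 GC boxes, had 19.8 and 59.6 against 0 and 56.5, which overlap. The TTC7B start had a summit in LNCaP-resistance replicate 1 alone, at 57.4. For IGF1R the start had 5.11 and 14.6 in LNCaP and 49.2 and 17.3 in the resistant lists, whereas 3 of the 6 sites of its cluster were in neither resistant list.

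**Figure D4:**
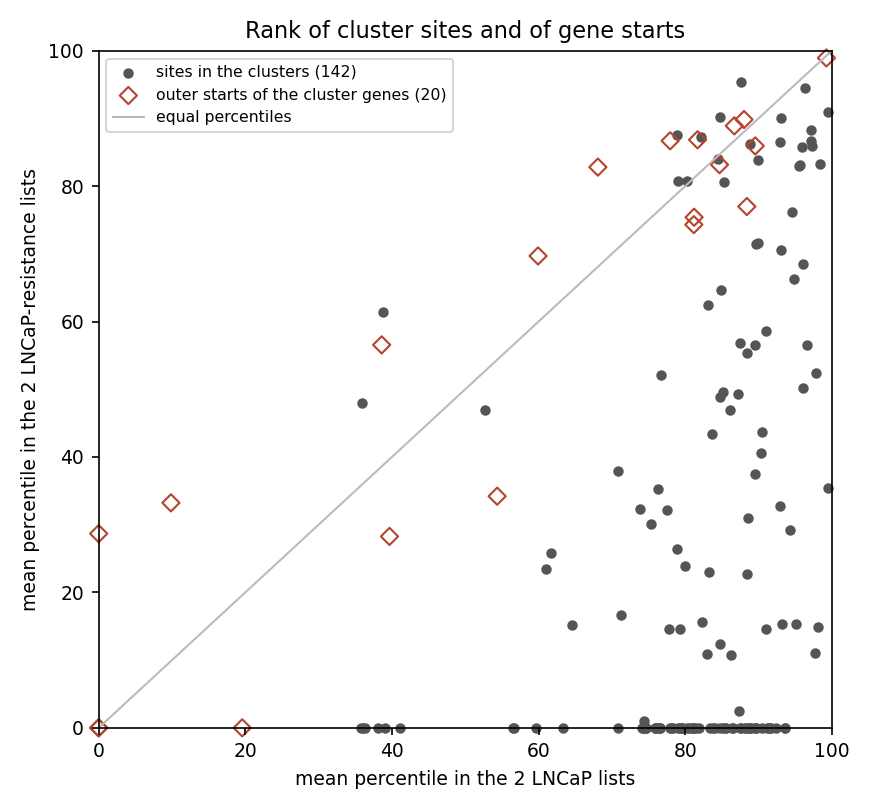
Mean percentile in the 2 resistant lists (vertical axis) against that in the 2 LNCaP lists (horizontal axis) for the 142 sites of the clusters (grey points) and the 20 outermost starts of the genes that hold them (red diamonds), with a line at equal percentiles. The grey points were chosen for high LNCaP scores, and 64 of them lie at 0 on the vertical axis, while the diamonds lie on both sides of the line.

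Within 50 kb of a cluster, or overlapping one, were 63 of the 20037 protein-coding genes, which is 0.314%. Of 11 gene lists, 10 had no gene there: 40 androgen-responsive genes, 20 luminal prostate transcription factors, 20 luminal structural genes, 20 neuroendocrine genes, 16 basal genes, 16 mesenchymal genes, 12 blood cell genes, 20 genes of the secretory pathway, 20 of the cell cycle and 20 of the cytosolic ribosome. Of 20 lipid and steroid metabolism genes, 1 was at a cluster, ACACA. With 0.314% of genes at a cluster, a count of 0 in a list of this size is near the background and carries no information on the list.

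Runs of 3 or more in both LNCaP lists were near 3 of 20 luminal transcription factor genes and 1 of 40 androgen-responsive genes. They were also near 2 of 20 ribosomal protein genes, and 1 of 20 genes each of lipid and steroid metabolism, the secretory pathway and the cell cycle. Of all protein-coding genes, 1.71% were near such a run. Within 50 kb of an androgen-responsive gene the LNCaP lists had a median of 2.5 of the top distal summits, as the mean of the 2 lists. This median was 2 for luminal structural genes and for lipid and steroid metabolism genes. It was 1 for all protein-coding genes, and gene length was not matched. The longest runs of stitched summits near luminal transcription factors were 4 and 3 at SPDEF, 3 and 4 at ELF3 and 3 and 3 at XBP1, in LNCaP replicates 1 and 2. The longest run near a gene of any list was at RPLP1, a protein of the ribosomal stalk, with 3 and 5. Among androgen-responsive genes LRIG1 had runs of 3 in both. All summits within 50 kb of SPDEF numbered 10 and 10 in LNCaP and 9 and 7 in the resistant lists. Those of ELF3 numbered 13 and 14 against 11 and 10, and those of LRIG1 18 and 15 against 5 and 5.

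None of 5 loci followed in the study was at a cluster. TMPRSS2, an androgen-induced protease gene, had 3 within 50 kb in each LNCaP list, none of them close enough to another to be stitched. SMARCA4, an ATPase of chromatin remodelling, had 5 and 4, with runs of 3 and 2. SYP and ENO2, both neuroendocrine markers, had 1 in each list, and PROX1, a homeodomain transcription factor, had 1 and 0. Counting all summits within 50 kb, the LNCaP lists had 21 and 17 at TMPRSS2, 19 and 22 at SMARCA4 and 7 and 8 at SYP. They had 19 and 20 at ENO2 and 6 and 5 at PROX1.

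The ends of the 63 genes at the clusters gave counts near those of all genes. Of 58 with a summit within 3 kb of an end in any list, the strongest such summit ranked lower in both resistant lists for 17 (29.3%) and higher for 13 (22.4%), beside 28.4% and 23.8% of the 16896 protein-coding genes. This split depends on list length, and with lists of equal length 4 were lower and 33 higher, against 8.71% and 61.6% of genes. Without LNCaP-resistance replicate 1, 26 were lower, or 45.6% beside 48.8% of genes. Of the 28 genes overlapping a cluster, 26 had such a summit, of which 11 (42.3%) were lower and 4 (15.4%) were higher. Over all protein-coding genes these shares were 28.4% and 23.8%, and the 26 were not counted again with lists of equal length. The 11 lower genes include LOC128462377, a gene within the span of ANKRD11, which went from 87.9 and 81.0 to 0 in both. KCNMA1 and MYT1L went from 72.5 and 44.7, and from 53.5 and 20.4, to 0 in both resistant lists.

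A contrast within 1 locus, noticed after the values were seen, was at LMNA. RAB25, a small GTPase of epithelial recycling endosomes that ends 20414 bp from this cluster, had gene-end percentiles of 97.6 and 97.0 in LNCaP and no summit within 3 kb of an end in either resistant list. LAMTOR2 near by had the same LNCaP values, so the same summit lay within 3 kb of an end of each gene. In the resistant lists LAMTOR2 had 93.7 and 98.5, the same values as UBQLN4 on its other side. LMNA itself had 54.0 and 65.9 against 72.4 and 67.0, and UBQLN4 and SEMA4A near by also had summits in all 4 lists. FAT2, an atypical cadherin 33894 bp from the SLC36A1 cluster, had 69.2 and 52.2 against 0 and 0.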

How the data were processed

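ATAC-seq summits were analysed for 2 LNCaP and 2 LNCaP-resistance libraries. The authors deposited 1 list of summits per library, with a score on the −log10 scale, from either p-values or q-values (which was not given in the sources used here), whose lowest values are just above 1.30. Bowtie2 2.2.5, SAMtools 1.6 and MACS2 2.2.6 on hg38 are named in the submitters' processing notes. The lists give no read counts, so depth and the precision it would give are unknown. Genes and promoter windows came from RefSeq tables of GRCh38.p14. The gene table has no strand, so both gene ends counted. Each library has its own list.

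From these, percentiles within a list were computed, LNCaP clusters were built as described, and summits within 250 bp were matched. Clusters with no summit left in either resistant list, and those with 75% or more left in every pair, were named in full. The genes named were those holding, or else nearest within 50 kb to, the 15 clusters with the most LNCaP summits, the empty clusters, the 10 with the highest share left, listed genes at a cluster, any gene at 3 or more clusters (there was none), and TMPRSS2, SYP, ENO2, SMARCA4 and PROX1. Others were named after their values were seen: the remaining genes holding clusters, the genes with the longest runs near luminal loci, RPLP1, RAB25 and its neighbours, LOC128462377, and FAT2. GADD45G, the nearest protein-coding gene to the LINC03062 cluster, was named although it lies beyond 50 kb. The members and gene lists were chosen with earlier results of these data known. The study describes its experiments in general as independently replicated, but the labels do not say whether these libraries came from separate cultures, so their spread may be technical. Intervals are exact binomial (Clopper-Pearson) for shares and Newcombe's for differences. Motifs were exact matches on both strands. Cluster building and matching were tested on simulated lists with planted clusters. Tables were handled with pandas 2.3.3 and numpy 2.4.6 under Python 3.11.15, intervals came from scipy 1.17.1 and statsmodels 0.14.6, and plots from matplotlib 3.10.9. Some markers that were examined are not reported here.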

Additional observations from a re-analysis of the deposited data

How the results depend on the processing

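The 3 empty clusters stayed empty wherever only the matching was changed, but these settings could not have filled them. The nearest resistant summit was 7101 bp away, and the settings other than distance only removed resistant summits or pairs of libraries. The number of clusters and the sign of their difference from other distal summits depended on the rule. With 10000 summits per list there were 2 clusters, 25% left, a difference of −34.8 points, 1 empty and 0 overlapping a resistant cluster. With 40000 there were 284, a difference of 6.47 points, 14 empty and 45 overlapping. Stitching over 5 kb gave 1 cluster, 87.5% left, a difference of 36.1 points, 0 empty and 0 overlapping. Stitching over 25 kb gave 184, 55.7% left, 4.41 points, 8 empty and 49 overlapping. With 3 or more summits there were 180, 1.01 points, 17 empty and 39 overlapping, and with 6 or more there was none, so no value. With 1 kb from a gene end the share was 55.8%, the difference 1.59 points and the overlap 3. With protein-coding genes alone these were 56.8%, 1.86 points and 4. The cause of these changes was not tested.

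A score of at least 10 in the resistant lists left 34.5% and 5 empty clusters, and lists of equal length left 43.0% (42.8% and 43.2% in the 2 resistant lists) and 5 empty. Leaving out each library in turn gave 30 to 63 clusters, shares from 43.2% to 52.7%, differences from −5.94 to 0.145 points (above 0 without LNCaP replicate 1), 3 to 5 empty clusters, 2 to 4 overlapping clusters, and 38.4% to 50.6% for summits inside clusters. Pairing by replicate number, the replicate block, gave 48.5%, −2.77 points and 3 empty clusters. The numbers share only a batch label of the name repeat, which the sources do not explain. Genes at clusters numbered 28 by overlap alone and 104 within 100 kb. Gene ends lower in both resistant lists numbered 10 with 1 kb, 4 with lists of equal length, and 21 to 26 without 1 library, where fewer lists must separate. The ranks in place of percentiles were chosen after seeing the data. In all, 41 of 87 alternative values stayed within the limits set, 39 moved and 7 changed sign. The lists without read counts limit all of these values.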
